A study of Homo sapiens with 6 samples.

Results

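Integrins were followed in U87MG cells, an established human glioblastoma (GBM) cell line from ATCC, through the genes of 10 subunits: ITGA2, ITGA3, ITGA4, ITGA5, ITGA6, ITGAV, ITGB1, ITGB3, ITGB5 and ITGB8. These genes were taken by name and matched to 10 of the 65988 Ensembl gene identifiers counted in each library. Of the 6 libraries, all of wild-type genotype, 3 came from cells given vehicle (control) and 3 from cells given 2 µM RSL3, an inhibitor of the lipid peroxide-reducing enzyme GPX4 that starts ferroptosis, and the figure legend of the study gives a time of 24 h. Both groups were the same line grown in serum-containing medium, and their poly(A) RNA was read from both ends of each fragment. The design asks which transcripts differ between RSL3-treated and control cells.

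Integrins are surface receptors made of 1 α and 1 β subunit, and each pair recognises its own set of matrix proteins outside the cell and couples them to the actin skeleton inside. ITGB1 encodes the β subunit that joins most α subunits, whereas the αV subunit, encoded by ITGAV, joins several β subunits. Receptors of the αV group and α5β1 bind an arginine-glycine-aspartate (RGD) motif in fibronectin, vitronectin and similar proteins. Glioma cells use integrins to attach to and move through the matrix of the brain, and αV integrins have been pursued as drug targets in GBM.

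Of the 10 genes, ITGA2, ITGB8, ITGA5, ITGB1 and ITGA3 were downregulated by RSL3, and ITGB3 was upregulated. ITGAV, ITGB5, ITGA4 and ITGA6 did not pass the test. ITGA2 had the largest fall, to 0.586 times its control level, while the 3 most abundant of the changed genes, ITGA3, ITGB1 and ITGA5, fell less, ITGA3 by 11.8% and ITGB1 by 12.7%. Thus 6 of 10 subunit genes were called, beside 25.6% of the 16105 genes tested. In the downward direction 5 were called, beside 12.7% of all genes, and in the upward direction 1 was called, beside 12.9%. Standard errors of the log2 fold change differed with abundance, at 0.025 for ITGA3 and 0.23 for the rare ITGB8. The shares over all genes were not matched for abundance, here or for the gene lists below. The median log2 fold change was -0.13 over the 10 genes and -0.0044 over all genes tested. All 10 passed the filter on low counts, and calls were made with edgeR's quasi-likelihood F test at an adjusted p under 0.05. In 6 of the 10 genes every library of a group lay on the same side of every library of the other, as in 38.6% of all genes.

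Total counts per library ranged from 27813462 to 43306335. Counts were scaled to the mean library size after TMM adjustment and are called normalized counts here. A normalized count is a share of the RNA in a library, so less transcript per cell and a loss of the cells that carried most of it cannot be told apart. The labels name brain and GBM as the origin. VIM, CD44 and EGFR, genes typical of mesenchymal and EGFR-expressing glioma cells, were abundant, whereas AQP4 had 0 counts in all 6 libraries and SOX2 and S100B at most 2. The summed level of 10 glial and GBM markers was 2911 to 2947 CPM (counts scaled to a common library total) in control libraries and 2357 to 2470 CPM in RSL3-treated libraries. VIM and CD44 carried most of that sum and fell by 0.29 and 0.39 on the log2 scale. Of the 7 markers tested 3 were called lower, SLC1A3 being the third, and 4 were not called (GFAP 0.40, NES 0.25, OLIG2 0.13 and EGFR 0.06), with a median log2 fold change of 0.06. The summed level of 5 leukocyte and microglia markers lay between 2.25 and 3.59 CPM over the 6 libraries. CSF1R, at 68 to 140 raw counts, carried most of it, while PTPRC had 0 or 1 and AIF1 and CD3E 0. CD68 had 3 to 16, and other genes cover 85.6% of its exon bases. For 5 endothelial markers the sum lay between 4.91 and 6.28 CPM. CDH5 had 1 to 4 raw counts, PECAM1 2 to 8 and TEK 3 to 8, whereas VWF had 17 to 95 and KDR 82 to 156. Of the endothelial markers VWF fell by 1.33 and KDR rose by 0.54 on the log2 scale. Of 5 neuronal markers, SYT1 had 743 to 1122 raw counts and SNAP25 74 to 201. RBFOX3, NEUROD1 and SLC17A7 had at most 23 in any library. SYT1 carried most of the summed level of the 5, which was 30.7 to 33.2 CPM in control and 33.3 to 34.1 CPM in RSL3-treated libraries. SYT1 rose by 0.24 and SNAP25 fell by 1.04, and the oligodendrocyte gene MBP rose by 0.71. Between 2.56 and 3.82 CPM were found for 5 epithelial markers, of which 3 were tested and none was called. The part of these markers in the results was not tested.

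**Figure D1:**
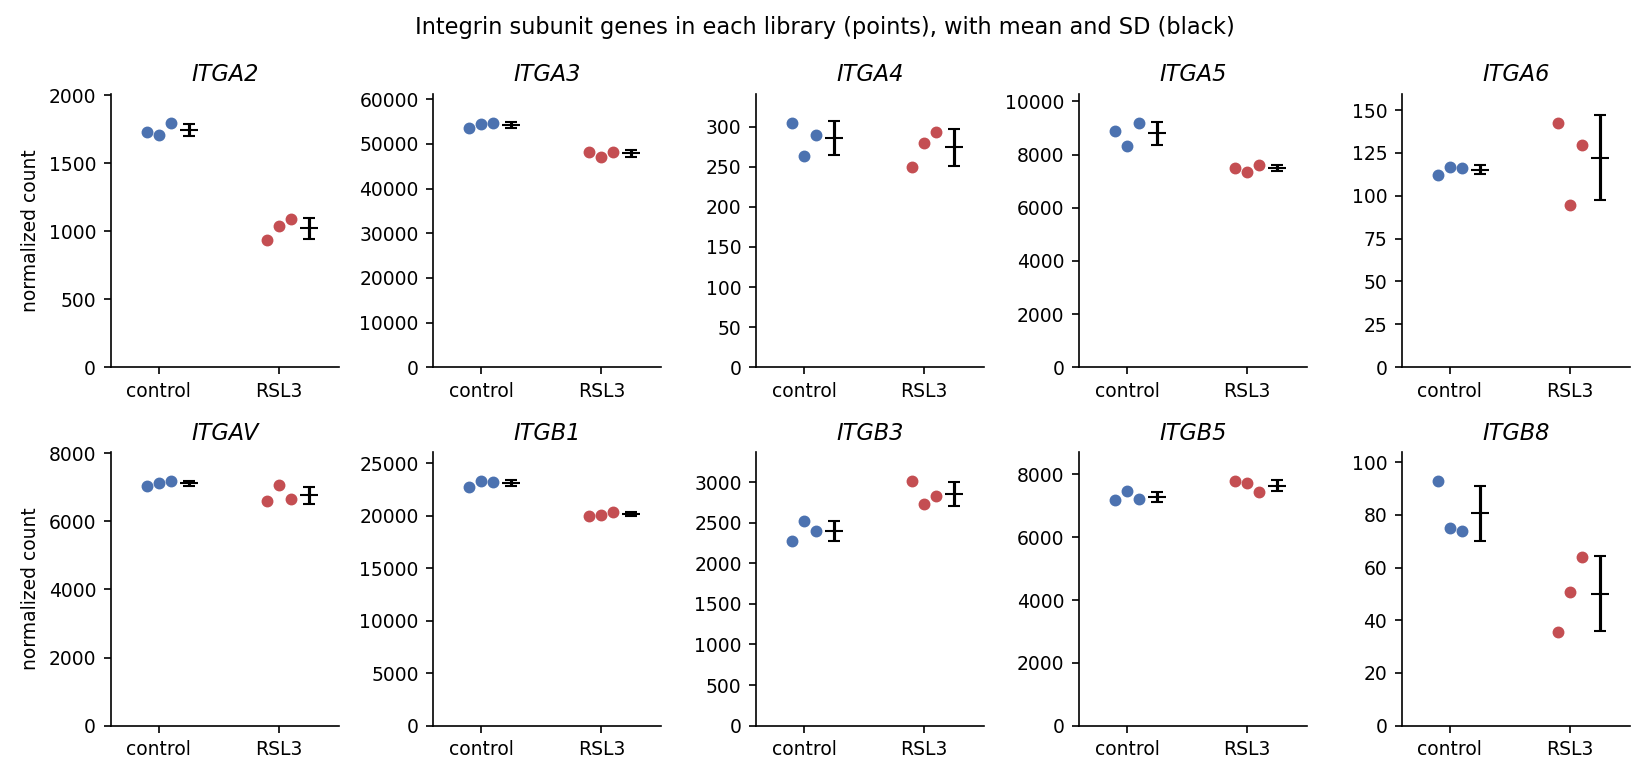
Normalized counts (vertical axes, from 0) of the 10 integrin subunit genes in the 3 control and 3 RSL3-treated libraries; each point is a library and the black mark gives the mean and SD of the group. The points of the groups are apart for ITGA2, ITGA3, ITGA5, ITGB1, ITGB3 and ITGB8 and overlap for ITGA4, ITGA6, ITGAV and ITGB5.

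To compare subunits with each other, CPM were divided by the length of the gene's merged exons in kb. ITGA3 was the most abundant subunit gene in both groups, at 162 ± 1.93 (SD, n = 3) CPM per kb in control cells, above 98.8% of the 15682 tested genes with an exon length. ITGB1 followed at 46.5 ± 0.572 (SD, n = 3) CPM per kb. ITGA5 at 34.95 ± 1.72 and ITGB5 at 32.8 ± 0.707 (SD, n = 3) CPM per kb overlapped in control libraries, and so did ITGAV at 10.8 ± 0.0931 and ITGB3 at 10.3 ± 0.531 (SD, n = 3). Below them came ITGA2 at 6.48 ± 0.172 (SD, n = 3) CPM per kb. ITGA4, ITGA6 and ITGB8 were rare, with 0.786, 0.506 and 0.156 CPM per kb, and ITGB8 stood above 6.91% of those 15682 genes. Apart from those 2 overlapping pairs, each gene in this order was above the next in every control library. In RSL3-treated cells ITGB5 stood above ITGA5, at 34.4 ± 0.841 against 29.7 ± 0.473 (SD, n = 3) CPM per kb, and ITGB3 above ITGAV, at 12.3 ± 0.616 against 10.3 ± 0.380 (SD, n = 3). These orders rest on the length that is used. Per kb of coding sequence ITGB5 stood above ITGA5 and ITGAV above ITGB3 in both groups, while ITGB8 and ITGA6 overlapped in control cells, at 1.02 and 0.996 CPM per kb. Per kb of canonical transcript ITGAV again stood above ITGB3 in both groups. There ITGA5 was above ITGB5 in control cells, at 60.7 against 48.1 CPM per kb, and overlapped it in RSL3-treated cells, at 51.6 against 50.5, so the order of ITGA5 and ITGB5 is not settled by these data.

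**Figure D2:**
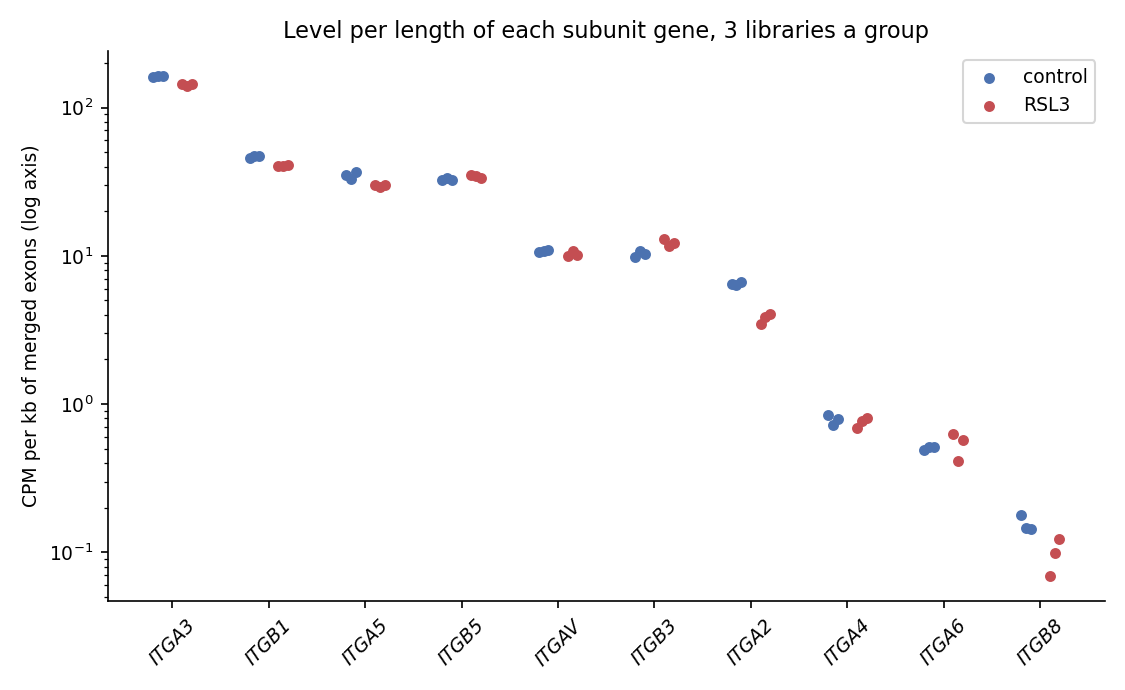
Level of each integrin subunit gene in CPM per kb of merged exons (vertical axis, log scale), ordered by the control mean; each point is a library, blue for control and red for RSL3. Levels ran from 162 CPM per kb for ITGA3 to 0.156 for ITGB8 in control cells, and the largest gap between the colours is at ITGA2 and ITGB8.

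The RefSeq promoter table of GRCh38.p14 held 13 windows, of 250 bases before and 50 after a start site, for 8 of the 10 genes. ITGA3 and ITGB3 had no window, so their promoters were not searched. The bases upstream of any annotated exon are shown for ITGA2, the gene with the largest fall, for ITGA5, which also fell, and for ITGB5, which did not pass the test, to set the start sites of differing members side by side. They are read 5′ to 3′ on the strand of the gene, and capitals mark matches to the motifs searched. For ITGB5 the table held windows 1, 2 and 3, and the stretch shown is of window 1 only. Window 3, with 75.7% GC beside 49.7% in window 1, lay on an annotated exon from its first base.
ITGA2, plus strand, chr5:52989102-52989339: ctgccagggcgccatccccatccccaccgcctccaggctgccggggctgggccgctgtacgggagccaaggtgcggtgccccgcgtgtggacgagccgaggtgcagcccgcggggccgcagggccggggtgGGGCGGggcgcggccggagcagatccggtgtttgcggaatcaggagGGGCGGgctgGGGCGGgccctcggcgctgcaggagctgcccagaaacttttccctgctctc
ITGA5, minus strand, chr12:54419267-54419516: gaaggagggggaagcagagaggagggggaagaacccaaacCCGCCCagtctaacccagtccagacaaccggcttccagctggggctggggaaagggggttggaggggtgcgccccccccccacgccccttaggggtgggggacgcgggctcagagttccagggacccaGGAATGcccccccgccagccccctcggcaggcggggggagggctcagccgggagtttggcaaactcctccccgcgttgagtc
ITGB5, minus strand, chr3:124901419-124901668: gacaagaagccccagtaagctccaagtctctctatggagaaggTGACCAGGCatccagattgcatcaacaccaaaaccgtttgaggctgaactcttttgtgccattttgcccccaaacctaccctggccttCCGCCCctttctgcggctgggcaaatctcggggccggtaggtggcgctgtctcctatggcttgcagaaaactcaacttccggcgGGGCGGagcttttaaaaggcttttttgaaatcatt

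In these stretches the capitals are GC boxes (GGGCGG, or CCGCCC on the other strand), a TEAD site (GGAATG) in ITGA5 and the core of an antioxidant response element (TGACNNNGC) in ITGB5. Over whole windows, searched on both strands, a GC box was found in 9 of 13 windows from 6 genes, and in 45% of all 35116 promoter windows of the table. An AP-1 site (TGANTCA) was found in the window of ITGA5, 6 bases before its start site and running past the stretch shown, and in 7.71% of all windows. The antioxidant response element core was found for ITGB1 and ITGB5, and in 13.3% of all windows. TEAD sites were found for ITGA5 and ITGB1, and in 14% of all windows. A CCAAT box (CCAAT) was found for ITGB1 and ITGB8, a TATA box (TATAAA) for ITGA6 and ITGB1, and an E-box (CACGTG) for ITGA6, against 34.6%, 11.5% and 7.26% of all windows. In ITGB1, matches to TATAAA on opposite strands overlapped. Of the 8 genes searched, 6 had a GC box. They were ITGA2, ITGA5, ITGB1 and ITGB8, which fell, and ITGA6 and ITGB5, which did not pass the test. Each other motif was found in at most 2 of the 8 genes.

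Among the collagen and laminin receptors, ITGA2 encodes the α subunit of the collagen receptor α2β1 (ENSG00000164171, chromosome 5 of GRCh38, 52989340 to 53094779). Its normalized counts were 1729, 1711 and 1798 in control replicates 1, 2 and 3 and 937, 1037 and 1092 in RSL3 replicates 1, 2 and 3. Every RSL3-treated library was far below the lowest control library. The log2 fold change was -0.77 (SE 0.05, adjusted p in edgeR = 1.02e-09). None of its exon bases is shared with another gene of the GENCODE v44 annotation.

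ITGA3 encodes the α subunit of the laminin receptor α3β1 (ENSG00000005884, chromosome 17, 50055968 to 50090481). It had 53529, 54545 and 54727 normalized counts in control libraries and 48290, 47032 and 48282 in RSL3-treated libraries. The groups were apart, with a gap several times the spread within either. The log2 fold change was -0.18 (SE 0.03, adjusted p in edgeR = 1.32e-05). ITGA6 encodes α6, also a laminin receptor subunit and a marker of stem-like glioma cells (ENSG00000091409, chromosome 2, 172427354 to 172506459). Its counts of 112, 117 and 116 in control libraries lay within the range of the RSL3-treated libraries, at 143, 94.5 and 130. The adjusted p of ITGA6 in edgeR was 0.772, and the 95% interval of its log2 fold change ran from -0.26 to 0.43. Changes within that interval are not excluded, and the RSL3-treated libraries spread more than the controls.

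ITGB1 encodes the shared β1 subunit with which α2, α3, α4, α5 and α6 pair (ENSG00000150093, chromosome 10, 32887273 to 33005792). Its normalized counts were 22780, 23286 and 23260 in control libraries and 20013, 20076 and 20395 in RSL3-treated libraries. All 3 treated libraries were below all 3 controls, with a log2 fold change of -0.20 (SE 0.03, adjusted p in edgeR = 1.05e-05). Of its merged exon bases, 2.75% are also covered by the antisense transcript ITGB1-DT, and the counting ignored strand.

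ITGA5 encodes α5, which with β1 forms the main fibronectin receptor (ENSG00000161638, chromosome 12, 54395261 to 54419266). Control libraries had 8883, 8336 and 9193 normalized counts and RSL3-treated libraries 7510, 7359 and 7596. Control libraries varied more than treated ones, yet the lowest control was above the highest treated library. The log2 fold change was -0.23 (SE 0.03, adjusted p in edgeR = 2.74e-05). ITGA4 encodes α4, which with β1 binds VCAM1 and fibronectin (ENSG00000115232, chromosome 2, 181457202 to 181538940). Its counts were 305, 263 and 289 in control libraries and 249, 279 and 294 in treated ones, which overlapped. The adjusted p was 0.724 in edgeR, with a 95% interval of the log2 fold change from -0.28 to 0.15. Exons of CERKL, on the other strand, cover 26.4% of its exon bases.

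ITGAV encodes αV, the partner of β1, β3, β5 and β8 (ENSG00000138448, chromosome 2, 186590010 to 186680901). Its normalized counts were 7052, 7118 and 7176 in control libraries and 6601, 7055 and 6644 in RSL3-treated libraries. RSL3 replicate 2 lay within the control range. The log2 fold change of -0.07 (SE 0.03) had an edgeR adjusted p of 0.113, and its 95% interval, unadjusted, ran from -0.14 to -0.0045.

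Of the other β genes, ITGB3 was called higher, ITGB8 lower and ITGB5 not called. The difference between ITGB3 and ITGB8 was not tested, and each was compared with ITGB5 as a ratio. ITGB3 encodes β3, which with αV forms a receptor for vitronectin and osteopontin (ENSG00000259207, chromosome 17, 47253827 to 47313743). Counts were 2271, 2519 and 2402 in control libraries and 3009, 2726 and 2829 in RSL3-treated libraries. It was the sole gene of the 10 called higher, with every treated library above every control (log2 fold change 0.25, SE 0.04, adjusted p in edgeR = 0.00017). ENSG00000259753, a gene on the same strand, covers 33.2% of the exon bases of ITGB3 and was listed at 0 in all 6 libraries. If reads on shared exons were left out of both genes, as HTSeq-count does by default, the level of ITGB3 is understated in both groups.

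ITGB5 encodes β5, a vitronectin receptor subunit (ENSG00000082781, chromosome 3, 124761948 to 124901418). Its counts were 7181, 7467 and 7207 in control libraries and 7781, 7718 and 7431 in treated ones. RSL3 replicate 3 lay just below control replicate 2, so the groups overlapped. The log2 fold change was 0.07 (SE 0.03, adjusted p in edgeR = 0.114), with an unadjusted 95% interval from 0.0041 to 0.14.

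ITGB8 encodes β8, which with αV binds latent TGF-β (ENSG00000105855, chromosome 7, 20330702 to 20415754). This rare transcript had 92.7, 75.025 and 73.9 normalized counts in control libraries and 35.6, 50.9 and 63.9 in RSL3-treated libraries. The groups did not overlap, but the gap between them, 63.9 against 73.9, was smaller than the spread of either. The log2 fold change was -0.68 (SE 0.23, adjusted p in edgeR = 0.0319). The call rests on single libraries: without RSL3 replicate 1 the adjusted p was 0.152, without RSL3 replicate 2 it was 0.0760 and without control replicate 1 it was 0.154, and the log2 fold change was -0.49, -0.69 and -0.56. With 1 surrogate variable added, the adjusted p of ITGB8 was 0.0610 in edgeR and 0.127 in DESeq2.

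**Figure D3:**
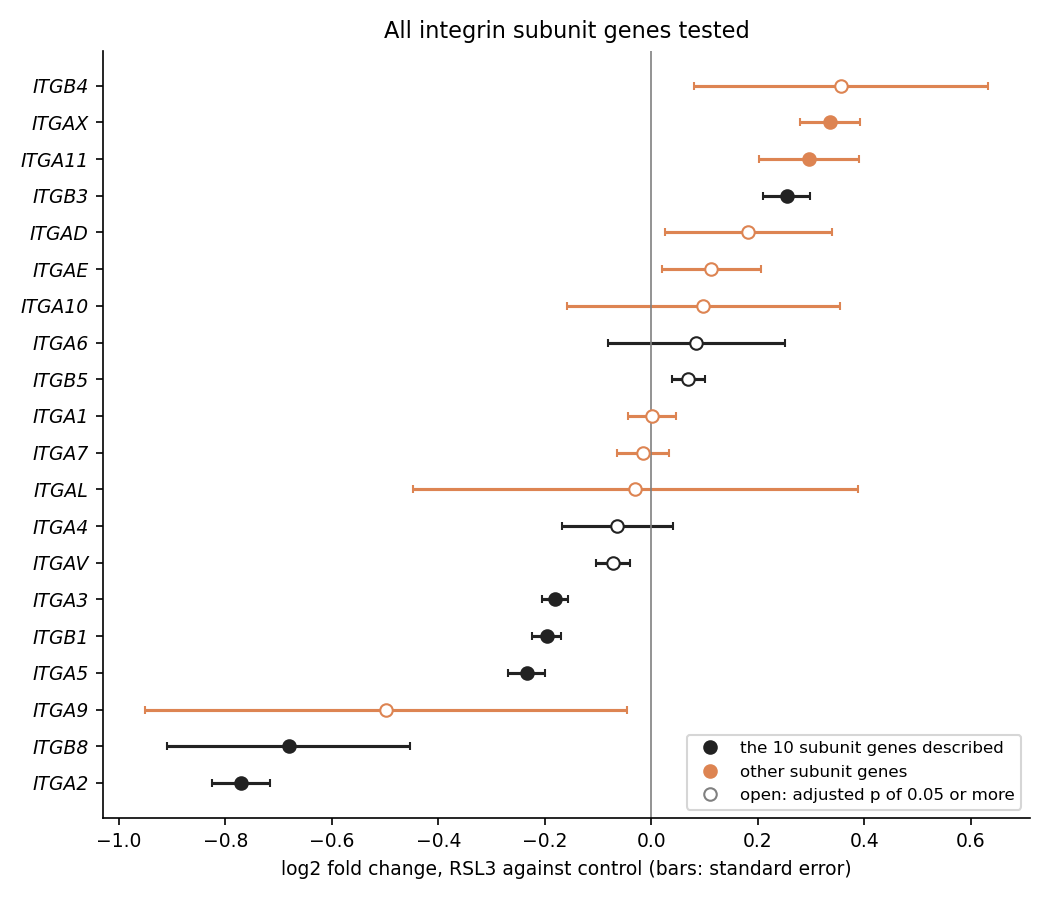
Log2 fold change of RSL3 against control (horizontal axis, bars give the standard error) for the 20 integrin subunit genes tested, 10 described above in black and 10 others in orange; open points did not pass an adjusted p of 0.05. ITGA2 and ITGB8 lie farthest to the left, and the filled points to the right of 0 are ITGB3, ITGA11 and ITGAX.

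Because a ratio of 2 genes within a library needs no library size, the balance between subunits was also compared. By level per kb of merged exons, β1 made up 51.8% ± 0.497 (SD, n = 3) of the 4 β genes in control cells, against 46.5% ± 0.846 (SD, n = 3) after RSL3. The share of β5 was 36.5% ± 0.327 against 39.4% ± 0.744 and that of β3 was 11.5% ± 0.381 against 14.0% ± 0.587 (SD, n = 3). The shares of the groups did not overlap for any of these 3 β genes. By normalized counts the groups did not overlap in 38.6% of all genes, and the shares were not tested. The share of β8 was 0.174% ± 0.0257 against 0.111% ± 0.0323 (SD, n = 3), lower after RSL3 and also without overlap. The 4 shares make up a whole in each library, so they are tied, and a lower share of β1 raises the sum of the others. ITGB5 itself was not called. Per kb of canonical transcript the share of β1 was 75.1% in control and 71.0% in RSL3-treated cells, so its size, but not the direction, rests on the length chosen. Among the α genes, α3 held 75.2% ± 0.706 of the level in control and 76.1% ± 0.310 in RSL3-treated cells, and the libraries overlapped. The share of α2 was 3.00% ± 0.0447 in control, against 2.02% ± 0.155 (SD, n = 3) after RSL3, without overlap. The share of αV was 5.00% ± 0.0304 against 5.45% ± 0.268 (SD, n = 3), also without overlap, though ITGAV itself was not called.

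**Figure D4:**
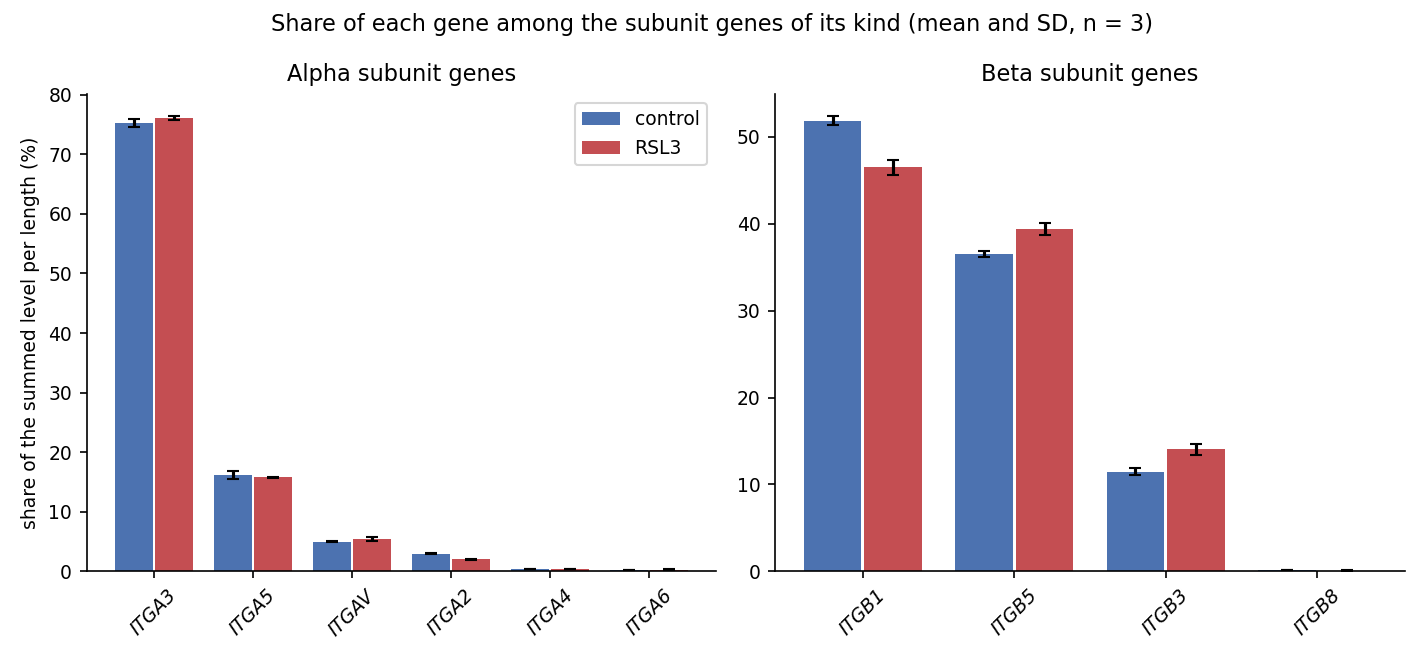
Share (vertical axis, %) of each gene in the summed level per kb of the 6 α genes (left) and the 4 β genes (right), as mean and SD of 3 control (blue) and 3 RSL3-treated (red) libraries. The bar of ITGB1 is lower and those of ITGB5 and ITGB3 are higher in RSL3-treated cells, while ITGA3 holds 75.2% of the α level in control and 76.1% in RSL3-treated cells.

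Of the 4 ratios tested, that of ITGAV to ITGA5 was 0.303, 0.326 and 0.298 in control libraries and 0.336, 0.366 and 0.334 in RSL3-treated libraries. The ratio of ITGB3 to ITGB5 was 0.302, 0.322 and 0.318 in control libraries and 0.369, 0.337 and 0.363 in treated ones. Both were higher in all 3 treated libraries than in any control. The ratio of ITGB8 to ITGB5 was 0.00476 ± 0.000686 (SD, n = 3) in control and 0.00283 ± 0.000864 (SD, n = 3) in treated cells, also without overlap. The ratio of ITGA3 to ITGA6 overlapped, at 321 ± 3.34 against 275 ± 57.1 (SD, n = 3). In the two-sided exact permutation test, the first 3 ratios each had p = 0.1, the smallest that 3 against 3 libraries can give, and the last had p = 0.4. Adjusted over the 4 ratios these values were 0.133 and 0.4, so none passed the threshold.

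The remaining 16 human integrin subunit genes were largely at low levels, and 10 of them passed the filter on low counts. Of these 10, 2 (20%) were upregulated and 8 did not pass the test, beside 25.6% of all genes called and 12.9% called higher. Over 10 genes no difference from all genes is read from these shares. ITGAX, which encodes αX, a subunit known from myeloid cells, had 1041, 1154 and 1216 normalized counts in control and 1467, 1369 and 1460 in RSL3-treated libraries (log2 fold change 0.34, adjusted p in edgeR = 0.000126). The β2 subunit with which αX and αD pair is encoded by ITGB2, which had between 0 and 4 raw counts in each library. ITGA11, a collagen receptor subunit of mesenchymal cells, had 341, 290 and 301 normalized counts in control and 383, 400 and 367 in treated libraries (log2 fold change 0.30, adjusted p in edgeR = 0.0239). Its groups were apart, but the call was lost without control replicate 2 or 3 or RSL3 replicate 1 or 2, at adjusted p from 0.0568 to 0.0993.

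ITGA1, the α subunit of the other common collagen receptor, had log2 fold change 0.00 with a 95% interval from -0.093 to 0.095, and other genes, among them PELO, cover 13.2% of its exon bases. The collagen receptor subunits ITGA2, ITGA1, ITGA10 and ITGA11 had log2 fold changes of -0.77, 0.00, 0.10 and 0.30, of which those of ITGA2 and ITGA11 were called, and the differences between them were not tested. ITGA7, a laminin receptor subunit, had 1969 ± 151 against 1952 ± 56.6 (SD, n = 3) normalized counts. ITGB4, ITGAE, ITGAD, ITGA10, ITGA9 and ITGAL had log2 fold changes between -0.50 and 0.36, none called. The other 6 genes (ITGA2B, ITGA8, ITGAM, ITGB2, ITGB6 and ITGB7) had at most 14 raw counts in any library and were not tested.

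Ligands of integrins, a list of 44 genes of which 38 were tested, held 8 upregulated and 17 downregulated genes, with a median log2 fold change of -0.09. Their called share was 65.8%, beside 25.6% of all genes, 12.9% higher and 12.7% lower. The same shares of all genes stand beside the collagen and laminin counts below. Collagen chains accounted for 6 of the downregulated genes among 8 tested, while COL6A2 rose and COL4A2 did not pass the test. COL1A2, a chain of type I collagen, the ligand of α2β1, fell from 7288 ± 710 to 3212 ± 506 normalized counts (SD, n = 3), with a log2 fold change of -1.18 and, in edgeR, an adjusted p of 2.22e-10. COL6A3, a chain of type VI collagen, and TGFBI, a matrix protein that binds several integrins, fell by 0.39 and 0.48 on the log2 scale. Among 10 laminin chains 2 rose and 3 fell. LAMB1, the laminin β1 chain, rose from 4861 ± 70.6 to 7440 ± 202 normalized counts (SD, n = 3), or by 0.61 on the log2 scale (adjusted p in edgeR = 2.30e-11). FBN2, which encodes fibrillin-2, and SPP1, which encodes osteopontin, rose by 0.63 and 0.24 on the log2 scale. FN1, which encodes fibronectin, the ligand of α5β1, fell by 0.14 on the log2 scale (adjusted p in edgeR = 0.00214), and LTBP1, which holds latent TGF-β in the matrix, fell by 0.33.

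**Figure D5:**
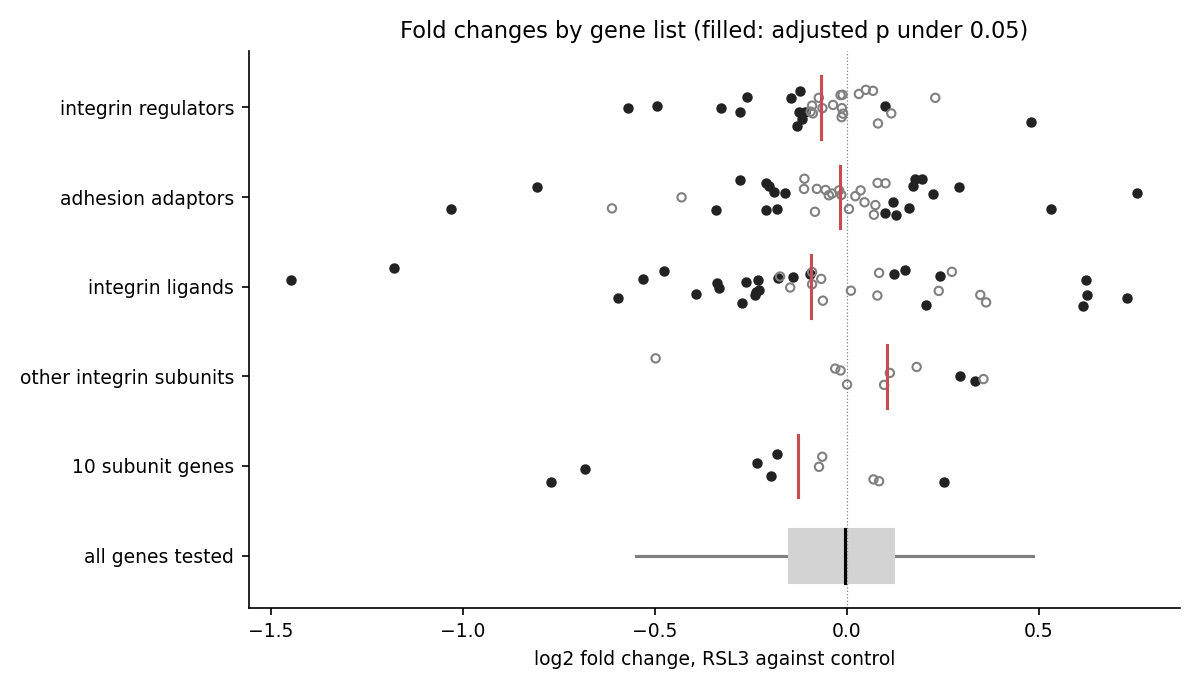
Log2 fold changes of RSL3 against control (horizontal axis) in 5 gene lists, with each point a gene, filled where the edgeR adjusted p was under 0.05, and a red line at the median; points are spread vertically at random. For all 16105 genes the box spans the middle of the distribution, from -0.15 to 0.12, and the line its 5th to 95th percentile, from -0.55 to 0.49.

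Inside the cell, integrins act through adaptors that bind their tails and link them to actin. Of 42 such genes 40 were tested, and 11 were upregulated and 10 downregulated, with a median log2 fold change of -0.02. The called share was 52.5%, beside 25.6% of all genes, 12.9% higher and 12.7% lower. FERMT3, the kindlin of blood cells that activates β subunits, rose from 1296 ± 44.3 to 2192 ± 74.6 normalized counts (SD, n = 3), with a log2 fold change of 0.76 and, in edgeR, an adjusted p of 1.07e-10. The kinase gene SRC and LIMS1, which encodes the adaptor PINCH1, rose by 0.53 and 0.29 on the log2 scale; LIMS1 has near-identical copies in the genome, so its counts are uncertain. KANK2, TNS3 and FHL2, which encode a talin-binding protein, a tensin and a LIM domain protein, fell by 0.34, 0.81 and 0.28. TLN1, the main talin, had 21796 ± 756 against 21097 ± 325 (SD, n = 3) normalized counts and did not pass the test (adjusted p in edgeR = 0.281). For the scaffold gene ILK other genes cover 78.5% of the exon bases, and its normalized counts, 25.9 in control and 16.9 in RSL3-treated cells, cannot stand for its level.

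Regulators of integrins, a list of 30 genes that were all tested, held 2 upregulated and 11 downregulated genes, with a median log2 fold change of -0.07. The called share was 43.3%, beside 25.6% of all genes, 12.9% higher and 12.7% lower. SLC3A2 encodes CD98, which binds β subunits and also carries the cystine transporter, and it rose from 71350 ± 3822 to 99608 ± 3401 normalized counts (SD, n = 3), with a log2 fold change of 0.48 and, in edgeR, an adjusted p of 8.35e-10. CD63, a tetraspanin, rose by 0.10 on the log2 scale, a call that was lost without RSL3 replicate 1 (adjusted p in edgeR = 0.0509). Caveolin-1, encoded by CAV1, fell from 9847 ± 75.5 to 6633 ± 137 normalized counts (SD, n = 3), with a log2 fold change of -0.57 and, in edgeR, an adjusted p of 2.33e-11. The tetraspanin gene CD9 fell by 0.33 on the log2 scale, and APBB1IP, which encodes the RAP1 effector RIAM that brings talin to integrins, fell by 0.50.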

How the data were processed

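RNA of 3 vehicle and 3 RSL3-treated U87MG libraries was analysed from raw read counts per Ensembl gene. Per the labels and the study's methods, the authors removed adapters and poor bases (Trimmomatic 0.36, Fastp), placed reads on GRCh38.p4 by HISAT2 and made exon counts without strand by HTSeq-count 0.6.1p1; the release of the annotation is not given in the sources used here. The deposited counts were not normalized.

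Counts were analysed here in R 4.3.3 with edgeR 4.0.16 (filterByExpr with a minimum count of 10, TMM, quasi-likelihood F test, Benjamini-Hochberg adjustment over 16105 genes, threshold 0.05). The study used DESeq2 after surrogate variable analysis, and these were alternatives (DESeq2 1.42.0, sva 3.50.0). Scripts were tested on simulated data. The labels do not say whether libraries came from separate cultures. The study describes its results in general as from biologically independent experiments or samples. The p-values set the difference of the groups against the spread between these libraries. Replicate numbers were not used as pairs. Positions, exon lengths and overlaps come from GENCODE v44 of GRCh38, and promoters from RefSeq. A fold change is RSL3 against control. Intervals of fold changes are unadjusted.

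The genes named are the 10 subunits, every other subunit tested and, in the ligand, adaptor and regulator lists, the called genes of smallest p, at most 3 a direction. Others (ITGB2, FN1, LTBP1, COL6A2, COL4A2, TLN1, ILK and markers) were chosen after their values were seen. Members and lists were chosen with earlier results of these data known. The alternatives were another scaling, other filters, DESeq2, a surrogate variable, the replicate block and leaving out each library.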

Additional observations from a re-analysis of the deposited data

How the results depend on the processing

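ITGB8 and ITGA6 had few counts, and their log2 fold changes had standard errors of 0.23 and 0.17. Over 14 alternatives the number of the 10 subunit genes called was between 5 and 7, with 4 or 5 lower and 1 higher, or 2 higher without RSL3 replicate 3, where ITGB5 was called (log2 fold change 0.09, edgeR adjusted p = 0.0475). ITGA2, ITGA3, ITGA5, ITGB1 and ITGB3 kept their direction and call in all 14, with adjusted p at or below 0.00252, and ITGB8 lost its call in 5. The number of other subunits called was 2 or, without some single libraries, 1. All genes called ranged from 3042 with DESeq2 and 1 surrogate variable to 4633 with the replicate number as a block. The deviations of same-numbered libraries correlated at 0.0274, 0.0274 and 0.0701, each library best with its own number, which gives a hint and no pairing by design; the block changed no call among the 10 genes. Lengths of canonical transcripts, added after seeing the data, bear on levels and shares and cancel in the test of a ratio.

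Genes with log2 fold changes near 0 changed sign in some alternatives. Leaving out each library in turn, log2 fold changes ran from -0.035 to 0.24 for ITGA6, from -0.033 to 0.26 for ITGA10, from -0.064 to 0.041 for ITGA7, from -0.41 to 0.29 for ITGAL and from -0.014 to 0.027 for ITGA1. With 1 surrogate variable, ITGA7 was at 0.0086 in DESeq2 and 0.0073 in edgeR, ITGAL at 0.066 in edgeR, and ITGA1 at -0.0096 in DESeq2 and -0.010 in edgeR. Without scaling factors ITGA1 was at -0.0074.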
